A study of Mus musculus with 12 samples.

Results

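The genes described here are 49 mouse genes for the working parts of the lysosome: 10 proteases, 12 glycosidases and sulfatases, 7 genes of lipid handling and granulin, 7 membrane proteins, 10 subunits of the proton pump and 3 transcription factors that control many of them. They were chosen by symbol, and all 49 were found among the 56941 gene IDs of the count table. Each was matched by Ensembl ID, and all 49 passed the filter on low counts, which left 15001 genes to test. The cells were RAW264.7, an established mouse macrophage line, which stands for 1 line and not for macrophages of a tissue. Cells were grown as a layer on a porous culture insert. Control macrophages (n = 6) lay for 24 h under a cushion of 1% agarose made in culture medium. Compressed macrophages (n = 6) lay for the same 24 h under the same kind of cushion with a printed weight on it, so that a stress of 0.14 kPa acted on the layer. The cushion was thus shared by both groups, and the weight was what differed. No source says that the 6 libraries of a group came from separate cultures grown on separate days, and the p-values below therefore reflect library-to-library spread, which may be technical.

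Lysosomes are acidic organelles in which proteins, glycans and lipids taken up or made by the cell are broken down. Soluble hydrolases reach them mostly through the mannose 6-phosphate receptors, their membrane is lined by heavily glycosylated proteins such as LAMP1 and LAMP2, and a rotary proton pump, the V-ATPase, makes the lumen acidic at the expense of ATP. The basic helix-loop-helix factors TFEB, TFE3 and MITF bind a short E-box-like element in the promoters of many lysosomal genes. Macrophages are rich in lysosomes because they digest what they engulf. Only mRNA was measured here, and neither protein, enzyme activity nor pH of the lysosome was.

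Between 37948795 and 40463545 counts were assigned to genes in control libraries and between 33460807 and 39103987 in compressed libraries. The 12 macrophage markers examined were all above the filter, and Lyz2 and Csf1r were among the abundant ones. Their summed level was 6212 to 6662 CPM in controls and 7788 to 10036 CPM in compressed libraries, highest in compressed replicate 6. Of the 12 markers, 6 were called higher and 2 lower, beside 24.5% and 21.9% of all tested genes. Lyz2 went from a mean of 2678 CPM in controls to 4204 CPM in compressed libraries, and Cd14 from 969 to 1488 CPM. The 2 lower markers were Csf1r, with means of 1616 and 1385 CPM, and Fcgr1. Spi1, Fcer1g, Tyrobp and Ptprc were not called. Compressed replicate 6 stood apart from the other compressed libraries. Across genes its log2 CPM (counts per 1000000 of the scaled library size) correlated with theirs at 0.968 to 0.975, against 0.994 to 0.996 among compressed replicates 1 to 5 and 0.996 to 0.997 among controls. It was the highest or the lowest compressed library for 42 of the 49 lysosomal genes, while any other library was at an extreme of its group for 5 to 20. In that library transcript length moved with the difference from the other compressed libraries: the 25 members with shorter exon sequence had a median log2 difference of 0.13 and the 24 longer ones -0.09. Values without this library are given beside many of the results that it moved, but not beside all of them. Among the macrophage markers, leaving it out gave Spi1 called lower (log2 fold change -0.10, edgeR padj = 0.0202). Ptprc was then called higher (0.37, edgeR padj = 5.73e-10), and Csf1r stayed lower (-0.15, edgeR padj = 1.58e-04). In RNA from a whole layer, fewer cells of a type and less RNA per cell cannot be told apart.

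**Figure D1:**
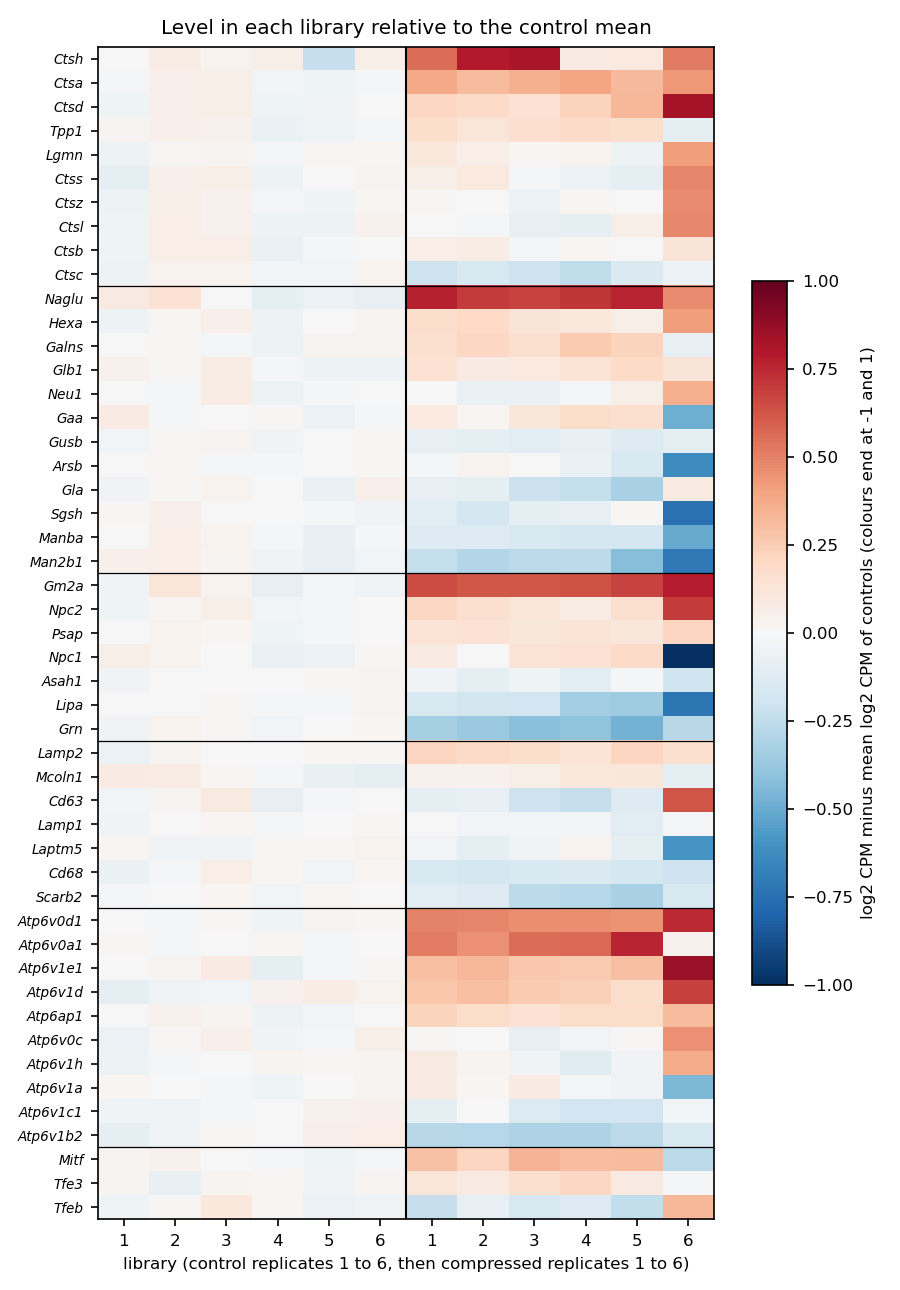
Level of each of the 49 lysosomal genes in each of the 12 libraries, as log2 CPM minus the mean log2 CPM of the 6 controls (red higher, blue lower, colours ending at -1 and 1). Horizontal lines separate proteases, glycosidases and sulfatases, lipid handling and granulin, membrane proteins, V-ATPase and transcription factors from top to bottom. Naglu, Gm2a and Atp6v0d1 were above the controls in all 6 compressed libraries, Grn was below them in all 6, and the column of compressed replicate 6 differs from its neighbours in many rows.

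As a group the lysosomal genes did not move together. Of 49 members, 16 were higher and 9 lower in compressed macrophages and 24 were not called (edgeR's quasi-likelihood test, Benjamini-Hochberg adjusted over all 15001 genes tested, padj of 0.05 or less). That is 51.0% of the members, while 46.4% of all tested genes were called, 24.5% higher and 21.9% lower. Among the 10594 genes at least as abundant as the least abundant member, 51.2% were called, so the share of lysosomal genes that changed was close to the background. The median log2 fold change of the members was 0.06, beside 0.02 for all tested genes. The changes were small. They ran from -0.38 for Grn to 0.68 for Naglu, 4 members passed an absolute log2 fold change of 0.5 and 0 passed 1, whereas 24.3% and 6.63% of all tested genes did. The compressed libraries lay all above the controls for 15 members and all below them for 9, and such separation was seen for 33.6% of all tested genes and 40.3% of those at least as abundant as the lowest member. Without compressed replicate 6 the calls became 21 higher and 14 lower beside a background of 66% (33.8% higher and 32.2% lower), and all 25 calls were kept. Scaling by library size alone turned the balance to 11 higher and 13 lower, with 47.5% of all tested genes called, 20.5% higher and 27% lower. Tested against a 1.2-fold limit (glmTreat), 5 members were higher and 1 lower, beside 24.5% of all tested genes, 14.2% higher and 10.3% lower. DESeq2 called 16 higher and 11 lower, beside 48.1% (24.7% and 23.4%).

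**Figure D2:**
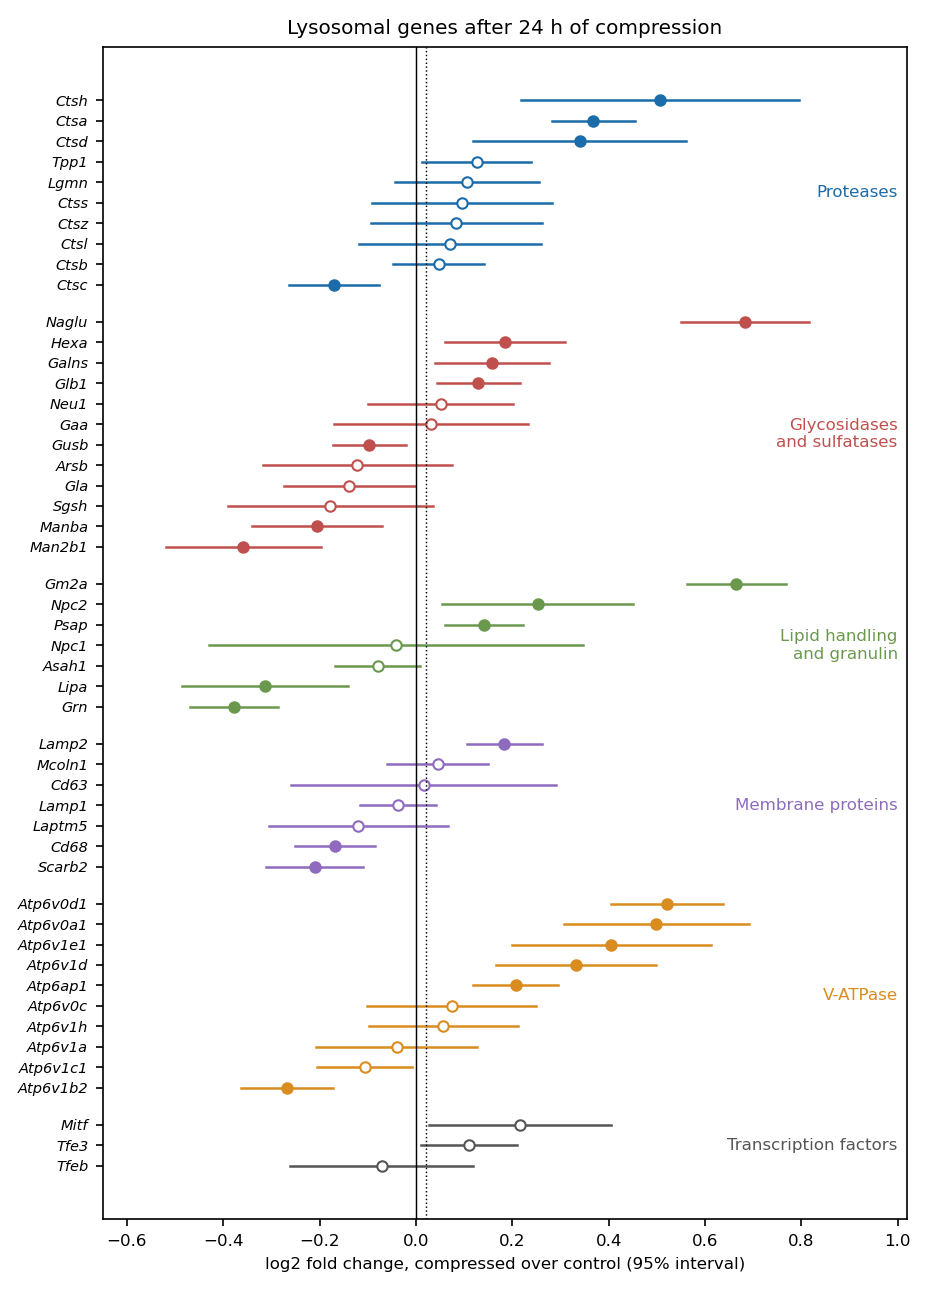
Log2 fold change of compressed over control macrophages for the 49 lysosomal genes, grouped by role, with bars for the 95% interval of the edgeR fit (6 libraries a group). Filled points passed padj of 0.05 and open points did not, the solid line marks 0 and the dotted line the median of all tested genes at 0.02. Every role group except the transcription factors holds filled points on both sides of 0, and none reaches 1 in either direction.

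Set per length of exon sequence, the lysosomal genes were abundant. Their median level in controls was 33.2 CPM per kb, beside 5.30 CPM per kb for 14647 tested genes with a known length. Cd68, a heavily glycosylated protein of macrophage lysosomes, was highest at 572 ± 17.9 CPM per kb (mean ± SD, n = 6), followed by the carboxypeptidase Ctsz at 471 ± 15.0. Ctss, Ctsb, Ctsd and Psap came next at 338 ± 13.6, 336 ± 13.0, 328 ± 10.6 and 320.1 ± 6.01, and neighbours among these 4 lay within each other's spread. Tfeb at 3.38 ± 0.144 and Ctsh at 0.544 ± 0.0412 were the lowest. Under compression Ctsd had a mean of 415 ± 83.8 CPM per kb, the third highest, with most of that wide spread from compressed replicate 6. Grn went from 231 ± 4.32 to 178 ± 8.39. The summed level of all 49 members was 15119 to 15833 CPM in controls and 15617 to 17444 CPM in compressed libraries. The compressed maximum was compressed replicate 6, and the ranges overlapped.

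**Figure D3:**
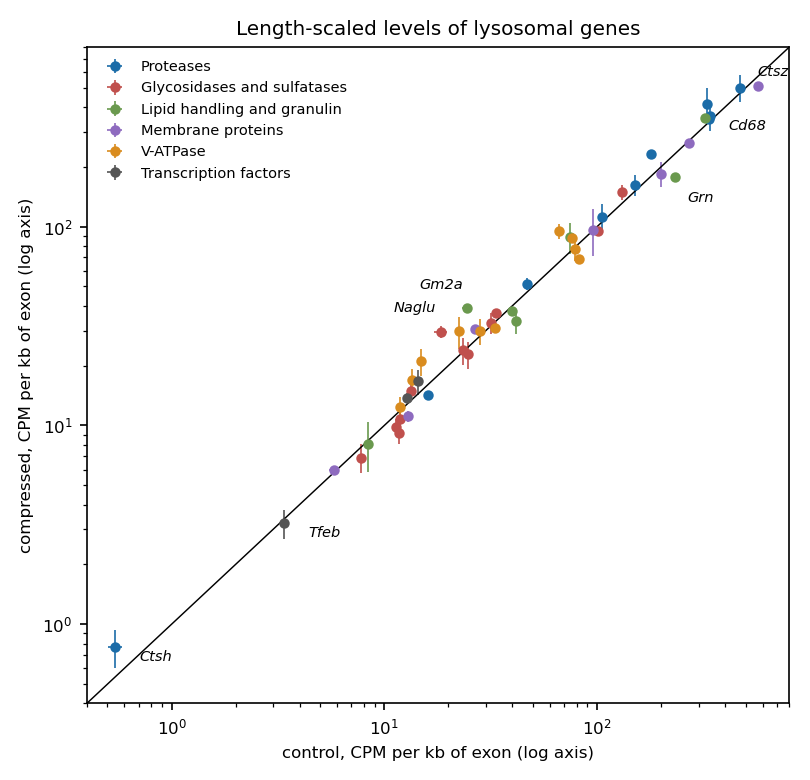
Mean level of each lysosomal gene in control (x) and compressed (y) macrophages in CPM per kb of exon sequence, both axes logarithmic, with SD bars over 6 libraries and the line of equal level. The members span from below 1 (Ctsh) to above 500 (Cd68), and nearly all lie close to the line, with Naglu and Gm2a above it and Grn below.

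Promoters were examined because the 3 transcription factors recognise a defined element. Windows from 250 bases before to 50 after the start site were found for 41 of the 49 members (RefSeq, GRCm38.p6), 51 windows in all. The palindromic core CACGTG, which reads the same on both strands, stood in windows of 13 members, 31.7%, and in 8.09% of 27025 genes. Extended to TCACGTGA it was held by 6 members, 14.6%, and by 1.12% of genes. The longer GTCACGTGAC was in no member window and in 0.37% of genes. The longer elements contain the shorter ones, so the counts overlap. Of the 13 members with the core, 5 were called higher and 0 lower (median log2 fold change 0.07). Of the 28 with a window but no core, 9 were called higher and 8 lower (median 0.08). Of all tested genes 24.5% were called higher and 21.9% lower. The difference between the members with and without the core was not tested. The count of 0 lower rested on compressed replicate 6 and on the scaling. Without that library 6 members with the core were called higher and 2, Gla and Sgsh, lower. With library size alone 4 were higher and 2, Gla and Lamp1, lower. Of all tested genes, 33.8% were higher and 32.2% lower without that library, and 20.5% and 27% with library size alone. A match is a run of letters and does not show that a factor binds there.

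The 6 members with TCACGTGA were Atp6v0d1, Ctsa, Ctsd, Gla, Mcoln1 and Atp6v1a. The stretches from 120 bases before to 20 bases into the transcript are shown for the 3 of them that were called over all 12 libraries, each higher in compressed macrophages. Of the other 3, Gla had a log2 fold change of -0.14 (padj = 0.0906) and was called lower without compressed replicate 6 (-0.19, padj = 4.05e-04), with library size alone (padj = 0.0146) and with the length trend removed (padj = 0.027). Capitals mark the element and any further core, and each sequence is the gene's own strand read 5′ to 3′. The element begins 4 bases before the start site of Atp6v0d1, 13 before that of Ctsa and 99 before that of Ctsd.
Atp6v0d1 (chr8:105566045-105566184, minus strand): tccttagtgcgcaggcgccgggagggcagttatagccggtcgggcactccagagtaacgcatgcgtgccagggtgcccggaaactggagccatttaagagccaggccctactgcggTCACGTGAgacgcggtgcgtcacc
Ctsa (chr2:164833653-164833792, plus strand): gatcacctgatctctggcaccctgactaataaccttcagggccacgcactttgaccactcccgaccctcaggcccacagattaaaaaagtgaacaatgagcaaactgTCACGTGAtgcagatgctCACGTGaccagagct
Ctsd (chr7:142387808-142387947, minus strand): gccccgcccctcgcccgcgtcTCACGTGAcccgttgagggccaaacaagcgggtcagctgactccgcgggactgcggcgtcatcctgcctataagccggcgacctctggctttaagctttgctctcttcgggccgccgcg

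Among the proteases, 3 of 10 rose, 1 fell and 6 were not called (median log2 fold change 0.10). That is 40% called, beside 46.4% of all tested genes. Without compressed replicate 6, 4 were higher and 1 lower, beside 66% of all tested genes called. Ctsa, the protective protein that also stabilises beta-galactosidase and neuraminidase, was at 819.8 to 879.8 CPM (median 835) in controls and 1054 to 1138 CPM (median 1089.7) in compressed libraries. All 6 compressed libraries were above all controls (log2 fold change 0.37 ± 0.04, padj = 4.89e-06). Exons of Pltp overlap it on the opposite strand, and the counts of Pltp came to 8.71% of those of Ctsa. Ctsd, the main aspartic protease of the lysosome and the gene with an element 99 bases before its start site, was at 748 to 803 CPM (median 762) in controls and 850.0 to 1369 CPM (median 893) in compressed libraries. The highest value, 1369 CPM, was compressed replicate 6, but the other 5 also lay above the controls (log2 fold change 0.34 ± 0.10, padj = 0.0147). Without that library its log2 fold change was 0.22 (padj = 9.55e-06). Ctsh, an aminopeptidase, had the largest fold of the group from the lowest level, at 2.08 to 2.58 CPM (median 2.52) in controls and 2.59 to 4.30 CPM (median 3.55) in compressed libraries. The groups touched closely but did not overlap (log2 fold change 0.51 ± 0.13, padj = 0.00682), and control replicate 5 was the lowest. Ctsc, the dipeptidyl peptidase that activates granule serine proteases, was at 89.5 to 95.2 CPM (median 92.9) in controls and 77.8 to 89.0 CPM (median 81.6) in compressed libraries. It fell (log2 fold change -0.17 ± 0.04, padj = 0.00542), but with upper-quartile scaling or the transcript length trend removed it was not called (padj = 0.105 and 0.124).

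The abundant cysteine cathepsins overlapped between the groups. Ctsb was at 1936 to 2126 CPM (median 2017) in controls and 2017 to 2226 CPM (median 2091) in compressed libraries (log2 fold change 0.05, 95% interval -0.05 to 0.14). The log2 fold changes of Ctsl, Ctss and Ctsz were 0.07, 0.09 and 0.08, with 95% intervals that included 0. In these 3 genes compressed replicate 6 was the highest library by a wide gap, for example 943 CPM for Ctsz beside 650.2 to 688 in the other 5, and without it the log2 fold changes were -0.03, -0.00045 and -0.01. Lgmn, an asparaginyl endopeptidase that processes other cathepsins, had 0.11, 95% interval -0.04 to 0.25, and 0.03 without that library. Tpp1, a tripeptidyl peptidase, was at 232 to 251 CPM (median 244) in controls and 228 to 277 CPM (median 273) in compressed libraries. Its lowest compressed value was replicate 6 at 228 CPM and the other 5 lay above all controls. Tpp1 was not called over the 6 libraries (log2 fold change 0.13 ± 0.05, padj = 0.0654) and was called without replicate 6 (log2 fold change 0.16, padj = 4.13e-05). The summed level of the 10 proteases was 5956 to 6394 CPM in controls and 6411 to 8062 CPM in compressed libraries. The highest sum was compressed replicate 6. As a share of all counts in a library the groups overlapped, at 0.610% to 0.652% in controls and 0.627% to 0.777% in compressed libraries.

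Of the 12 glycosidases and sulfatases, 4 rose and 3 fell (median log2 fold change -0.03), 58.3% called beside 46.4% of all tested genes. With library size alone 1 was higher and 4 lower, and without compressed replicate 6, 5 and 5. Naglu, which removes terminal N-acetylglucosamine from heparan sulfate, showed the largest change of all 49 members. It was at 45.8 to 54.0 CPM (median 48.1) in controls and 67.9 to 83.4 CPM (median 79.9) in compressed libraries. The compressed libraries were all above the controls, even the lowest of them, replicate 6 (log2 fold change 0.68 ± 0.06, padj = 7.67e-07). Its promoter window holds the 6-base core but not the longer element. Hexa, the alpha subunit of beta-hexosaminidase, was at 252 to 271 CPM (median 263) in controls and 272 to 348 CPM (median 291) in compressed libraries (log2 fold change 0.18 ± 0.06, padj = 0.0181). Glb1, beta-galactosidase, was at 97.4 to 107 CPM (median 101) in controls and 107 to 115 CPM (median 111) in compressed libraries (log2 fold change 0.13 ± 0.04, padj = 0.0173). Both groups of values stayed apart by a narrow margin, and neither gene was called when libraries were scaled by size alone (padj = 0.0886 for Hexa and 0.193 for Glb1). Exons of Tmppe overlap Glb1 on the same strand, and its counts came to 10.8% of those of Glb1. Without control replicate 6, Glb1 also missed the threshold (padj = 0.0576). Galns, a sulfatase for keratan sulfate and chondroitin 6-sulfate, was called higher (log2 fold change 0.16 ± 0.05, padj = 0.0305) although compressed replicate 6, at 33.5 CPM, lay below the controls at 34.2 to 36.3 CPM. It lost its call in 10 of the 12 fits that each left out 1 library (padj = 0.052 to 0.0714) and with the length trend removed (padj = 0.13).

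The 3 that fell were the mannosidases and beta-glucuronidase. Man2b1, the lysosomal alpha-mannosidase, was at 88.3 to 98.3 CPM (median 93.7) in controls and 57.0 to 79.4 CPM (median 77.3) in compressed libraries. No compressed library reached the controls (log2 fold change -0.36 ± 0.07, padj = 0.00136). Manba, the beta-mannosidase of N-glycan breakdown, was at 74.9 to 82.8 CPM (median 78.6) in controls and 55.9 to 72.3 CPM (median 70.6) in compressed libraries (log2 fold change -0.21 ± 0.06, padj = 0.0151). Gusb, abundant beta-glucuronidase, was at 449 to 469 CPM (median 462) in controls and 421 to 438 CPM (median 430.0) in compressed libraries. The difference was small and tight (log2 fold change -0.10 ± 0.04, padj = 0.037), and its call was lost in 7 of the fits that left out 1 library (padj = 0.0597 to 0.08) and with upper-quartile scaling (padj = 0.397). Of the 5 uncalled enzymes, Neu1 had 0.05, 95% interval -0.10 to 0.20 (-0.02 without compressed replicate 6) and Gaa, the glycogen-degrading acid glucosidase, 0.03, 95% interval -0.17 to 0.23. Gaa, Arsb and Sgsh were each lowest in compressed replicate 6, at 79.8, 96.9 and 20.5 CPM beside 113 to 127, 134 to 154 and 30.5 to 34.7 in the other 5. Without it Gaa was called higher (log2 fold change 0.11) and Sgsh, the sulfamidase of heparan sulfate, lower (-0.09), as was Gla, alpha-galactosidase A (-0.19). Arsb remained uncalled (-0.04). The sum of the 12 enzymes, 1499 to 1564 CPM in controls and 1493 to 1570.4 CPM in compressed libraries, did not separate the groups.

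Of the 7 genes of lipid handling, 3 rose and 2 fell, 71.4% called beside 46.4% of all tested genes. With library size alone 1 was higher and 3 lower. Without compressed replicate 6, 4 were higher and 2 lower, beside 66% of all tested genes called. Gm2a, the activator that lifts GM2 ganglioside out of membranes for beta-hexosaminidase, rose in every compressed library. It was at 95.2 to 109.8 CPM (median 99.1) in controls and 155 to 173 CPM (median 158) in compressed libraries (log2 fold change 0.67 ± 0.05, padj = 9.04e-08). Psap, the precursor of the saposins that present sphingolipids to their hydrolases, was at 854 to 898 CPM (median 881) in controls and 949 to 1017 CPM (median 964) in compressed libraries (log2 fold change 0.14 ± 0.04, padj = 0.0068). Npc2, the soluble cholesterol-binding partner of the membrane protein encoded by Npc1, was at 394 to 422 CPM (median 404) in controls and 428 to 657 CPM (median 453) in compressed libraries. All compressed values exceeded the controls, with the highest, 657 CPM, in replicate 6 (log2 fold change 0.25 ± 0.09, padj = 0.0377). Npc2 lost its call in 7 of the fits that left out 1 library (padj = 0.052 to 0.0708), yet without compressed replicate 6 it had a log2 fold change of 0.14 at padj = 1.87e-04. Psap and Npc2 were not called with scaling by library size alone (padj = 0.0897 and 0.0971).

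Grn, which encodes the secreted and lysosomal glycoprotein progranulin, showed the largest decrease of the 49 members. Its level was 786 to 824 CPM (median 805) in controls and 579 to 662 CPM (median 614) in compressed libraries, a gap that no library crossed (log2 fold change -0.38 ± 0.04, padj = 6.52e-06). Lipa, the acid lipase that frees cholesterol and fatty acids from lipoprotein lipids, was at 277 to 287 CPM (median 281) in controls and 171 to 252 CPM (median 234) in compressed libraries. The lowest value was compressed replicate 6 and every compressed library was below the controls (log2 fold change -0.31 ± 0.08, padj = 0.00559). Asah1, acid ceramidase, overlapped between the groups (-0.08, 95% interval -0.17 to 0.01). Npc1 was at 90.3 to 98.5 CPM (median 95.2) in controls and 40.3 to 108 CPM (median 102) in compressed libraries. The low value belonged to compressed replicate 6 alone, since the other 5 were at 94.2 to 108 CPM. Over 6 libraries its log2 fold change was -0.04, 95% interval -0.43 to 0.35, and without replicate 6 it was 0.11 (padj = 0.0103), in the other direction. Exons of Npc1 overlap those of Rmc1 on the opposite strand, whose counts came to 50.1% of those of Npc1, and the strand setting of the counting is not given in the sources used here.

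Among the 7 membrane proteins, 1 rose and 2 fell, 42.9% called beside 46.4% of all tested genes. With library size alone 1 rose and 3 fell. Without compressed replicate 6, 1 was higher and 3 lower, beside 66% of all tested genes called. Lamp2, whose splice forms serve in autophagosome fusion and chaperone-mediated autophagy, was at 246 to 260.3 CPM (median 257) in controls and 282 to 297 CPM (median 291) in compressed libraries. The groups were well apart and compressed replicate 6 lay within the others (log2 fold change 0.18 ± 0.04, padj = 8.87e-04). Lamp1, its more abundant relative per length, was at 707 to 735 CPM (median 726) in controls and 672 to 721 CPM (median 709.6) in compressed libraries and was not called (log2 fold change -0.04, 95% interval -0.12 to 0.04). Cd68 was at 688 to 755 CPM (median 719) in controls and 622 to 652 CPM (median 643) in compressed libraries (log2 fold change -0.17 ± 0.04, padj = 0.00247). Scarb2, the receptor that carries glucocerebrosidase to the lysosome, was at 79.4 to 82.4 CPM (median 81.3) in controls and 64.7 to 74.9 CPM (median 70.0) in compressed libraries (log2 fold change -0.21 ± 0.05, padj = 0.00207). Both were lower in all 6 compressed libraries, and Scarb2 missed the threshold with the length trend removed (padj = 0.0582). Cd63, a tetraspanin of late endosomes, was at 332 to 373 CPM in controls, 299 to 332 in compressed replicates 1 to 5 and 545 in replicate 6. Its log2 fold change was 0.02, 95% interval -0.26 to 0.29 with that library and -0.15 without it (padj = 8.57e-04). Laptm5 was likewise far lower in replicate 6 (503 CPM beside 711 to 779), and was not called with that library (log2 fold change -0.12) or without it (-0.04). Mcoln1, the calcium channel TRPML1, was at 41.2 to 46.5 CPM (median 43.9) in controls and 41.2 to 47.3 CPM (median 45.3) in compressed libraries (0.05, 95% interval -0.06 to 0.15). The summed level of the 7 membrane proteins was 2881 to 2986 CPM in controls and 2747 to 2859 CPM in compressed libraries, with every compressed library below every control.

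The V-ATPase members held 5 increases and 1 decrease among 10, 60% called beside 46.4% of all tested genes. Their median log2 fold change was 0.14. Without compressed replicate 6 there were 5 and 2, beside 66% of all tested genes called. The pump consists of a membrane sector, V0, through which protons pass, and a cytosolic sector, V1, which splits ATP. In V0, Atp6v0d1, the d subunit that joins the rotor to V1, was at 115 to 120.3 CPM (median 119) in controls and 161 to 199 CPM (median 164) in compressed libraries. Every compressed library was well above the controls (log2 fold change 0.52 ± 0.05, padj = 3.09e-06), and its promoter carries the element at the start site. Atp6v0a1, an isoform of the a subunit that forms the proton half-channels, was at 96.0 to 98.8 CPM (median 97.5) in controls and 101 to 165 CPM (median 142) in compressed libraries. The lowest compressed value, in replicate 6, was just above the highest control, and the other 5 were at 134 to 165 CPM (log2 fold change 0.50 ± 0.09, padj = 4.02e-04). Atp6ap1, an accessory subunit needed for assembly, was at 223 to 238 CPM (median 230.4) in controls and 255 to 287 CPM (median 262) in compressed libraries (log2 fold change 0.21 ± 0.04, padj = 9.19e-04).

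In V1, the stalk subunits Atp6v1e1 and Atp6v1d rose. Atp6v1e1 was at 86.2 to 97.7 CPM (median 92.4) in controls and 111 to 168 CPM (median 114) in compressed libraries, and Atp6v1d at 58.0 to 64.9 CPM (median 62.0) in controls and 69.7 to 98.9 CPM (median 74.4) in compressed libraries. Replicate 6 was the highest library for both, and the other 5 were also above the controls. The log2 fold changes were 0.41 ± 0.10 (padj = 0.00327) and 0.33 ± 0.08 (padj = 0.00288), and 0.29 and 0.25 without that library. Atp6v1b2, the non-catalytic nucleotide-binding subunit, went the other way, at 408 to 456 CPM (median 439) in controls and 351 to 390.3 CPM (median 358) in compressed libraries (log2 fold change -0.27 ± 0.04, padj = 2.13e-04). Atp6v1a, the catalytic subunit that alternates with it in the same ring, was not called (log2 fold change -0.04, 95% interval -0.21 to 0.13); replicate 6 was the low library at 349 CPM beside 465 to 506, and without it the value was 0.03. Atp6v1h had 0.06, 95% interval -0.10 to 0.21, and -0.02 without that library. Atp6v1c1 had -0.11, 95% interval -0.21 to -0.01 with padj = 0.0747, and was called lower without replicate 6 (-0.13) and without compressed replicate 2. Atp6v0c, the proteolipid of the rotor ring, had 0.07, 95% interval -0.10 to 0.25, and -0.02 without it. Its reads cannot be assigned with certainty, because the processed copy Atp6v0c-ps2 held 56886 counts beside 44170 for the gene. Summed with its copies it was at 225 ± 7.36 CPM in controls and 226 ± 15.9 CPM in compressed libraries (mean ± SD, n = 6, exact permutation test, two-sided, p = 0.952). The summed level of the 10 subunits, 1873 to 1956 CPM in controls and 1940.5 to 2056 CPM in compressed libraries, overlapped between the groups.

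**Figure D4:**
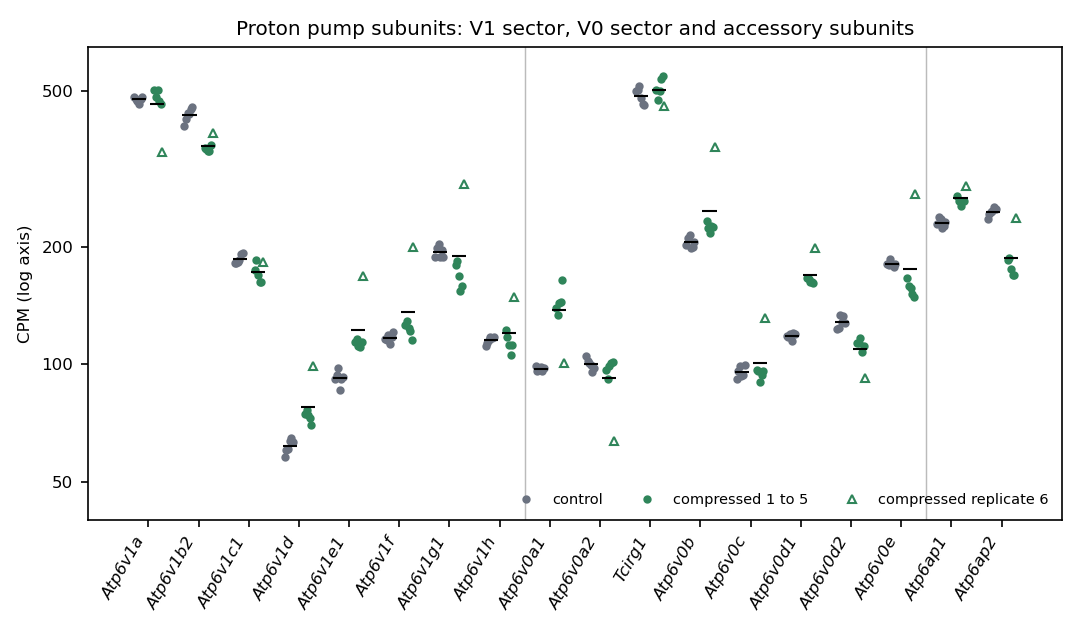
CPM (log axis) of V-ATPase subunits in each library, with grey points for the 6 controls, green points for compressed replicates 1 to 5, an open triangle for compressed replicate 6 and black lines for group means, in V1, V0 and accessory subunits from left to right. Atp6v0a1 and Atp6v0d1 lie above their controls in all 6 compressed libraries, Atp6v0d2 and Atp6v1b2 below, and Tcirg1 overlaps. Values are per library and not per length, so heights of different genes are not compared.

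Of the other pump genes listed, 17 of 22 were tested, of which 2 rose and 4 fell, 35.3% beside 46.4% of all tested genes. Without compressed replicate 6, 7 were higher and 7 lower, beside 66% of all tested genes called. Atp6ap2, the prorenin receptor that is the second accessory subunit, was at 236 to 253 CPM (median 246) in controls and 169 to 238 CPM (median 181) in compressed libraries. It fell (log2 fold change -0.39 ± 0.08, padj = 7.44e-04) while Atp6ap1 rose; replicate 6, at 238 CPM, was the compressed library within the control range. The assembly factors Vma21 and Tmem199 had log2 fold changes of 0.38 (padj = 0.021) and 0.35 (padj = 0.00308), and 0.23 and 0.25 without compressed replicate 6. Atp6v0d2, the alternative d subunit that is prominent in osteoclasts and macrophages, was at 123 to 134 CPM (median 128) in controls and 92.1 to 117 CPM (median 113) in compressed libraries (log2 fold change -0.23 ± 0.06, padj = 0.00434). Tcirg1 and Atp6v0a2, alternative a subunits, were not called (0.05 and -0.12). Atp6v1b1, Atp6v1c2, Atp6v1e2, Atp6v0a4 and Rnasek did not pass the filter. The first 4 are isoforms known mainly from kidney, testis and other specialised cells. Rnasek, with 21 counts, shares 599 exon bases with Gm21988 on the same strand, so its reads cannot be assigned with certainty.

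Because partner genes share a library, their ratio does not depend on depth or scaling. The log2 ratio of counts was compared for 17 pairs with an exact, two-sided permutation test that enumerated each way to divide the 12 libraries into groups of 6, whose smallest possible p is 0.00216, with padj over the 17. The 16 pairs given here include 8 that passed padj of 0.05. Several pairs share a gene, so they are not independent. Each value is a log2 ratio of counts, and its change between groups is what is compared. Within the pump, Atp6v0d2/Atp6v0d1 was 0.12 ± 0.04 in controls and -0.64 ± 0.24 in compressed libraries (exact permutation p = 0.00216, padj = 0.0046). Atp6v0a2/Atp6v0a1 changed by -0.62 and Tcirg1/Atp6v0a1 by -0.44, each with the same p and padj. The balance of counts thus moved toward Atp6v0d1 and Atp6v0a1 in all 6 compressed libraries, with no overlap. Atp6v1a/Atp6v1b2 was 0.13 ± 0.07 in controls and 0.35 ± 0.25 in compressed libraries and did not pass (exact permutation p = 0.0671, padj = 0.114), replicate 6 being the only compressed library below the controls while the other 5 were above them.

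Pairs of hydrolases and cofactors differed too. Gm2a/Hexa was -1.38 ± 0.06 in controls and -0.89 ± 0.09 in compressed libraries, a gain of the activator over the enzyme subunit. Against Ctsa, the protective partner of both, Neu1 changed by -0.32 and Glb1 by -0.24. Ctss/Ctsd changed by -0.24 and Lamp2/Lamp1 by 0.22. Each of these had an exact permutation p of 0.00216, padj = 0.0046, and no overlap. Npc2/Npc1 was 2.10 ± 0.06 in controls and 2.45 ± 0.78 in compressed libraries; the wide spread was replicate 6 at 4.03, and the pair did not pass (exact permutation p = 0.242, padj = 0.343). Cst3/Ctsb, a secreted inhibitor and its target, had a difference of -0.03 (exact permutation p = 0.916, padj = 0.957).

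**Figure D5:**
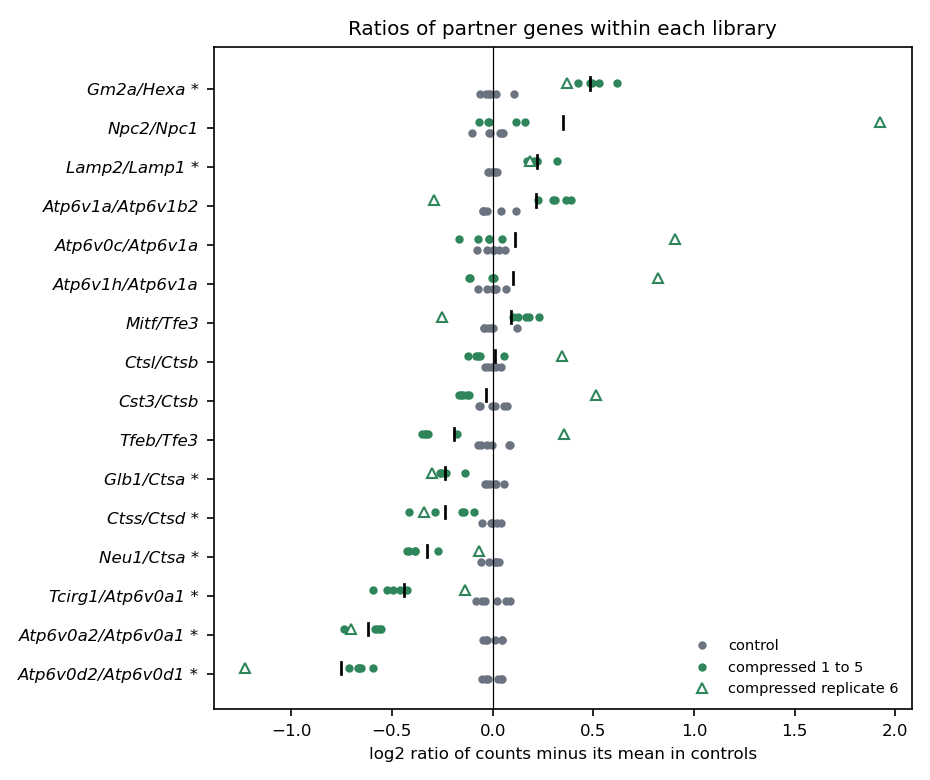
Log2 ratio of counts of 16 pairs of partner genes in each library minus the mean of that ratio in controls, with grey points for the 6 controls, green points for compressed replicates 1 to 5, an open triangle for compressed replicate 6 and a black bar for the mean of the 6 compressed libraries. Asterisks mark the 8 pairs with padj of 0.05 or less by the exact permutation test. Atp6v0d2/Atp6v0d1 is shifted furthest down (-0.75) and Gm2a/Hexa furthest up among marked pairs (0.49), and replicate 6 lies far from the other compressed libraries in Npc2/Npc1 and Atp6v0c/Atp6v1a.

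The 3 transcription factors were not called. Mitf was at 86.4 to 91.6 CPM (median 88.3) in controls and 73.6 to 113 CPM (median 109) in compressed libraries. The lowest value was replicate 6 at 73.6 CPM and the other 5, at 103 to 113, were above all controls (log2 fold change 0.22 ± 0.09, padj = 0.059). Tfe3 was at 112 to 120.3 CPM (median 119.8) in controls and 116 to 136 CPM (median 127) in compressed libraries (log2 fold change 0.11 ± 0.05, padj = 0.0659). Tfeb was at 18.3 to 20.6 CPM (median 18.999) in controls and 16.2 to 24.1 CPM (median 17.3) in compressed libraries, and here replicate 6 was the highest, at 24.1 CPM, with the other 5 at 16.2 to 18.033 (log2 fold change -0.07 ± 0.09, padj = 0.539). Without replicate 6 Mitf (0.29, padj = 2.56e-08) and Tfe3 (0.13, padj = 8.52e-04) were called higher and Tfeb lower (-0.17, padj = 0.00168). Tfeb/Tfe3 and Mitf/Tfe3 did not pass over 6 libraries (exact permutation p = 0.123 and 0.266, padj = 0.191 and 0.348). Activity of these factors is set largely by phosphorylation and entry into the nucleus, which mRNA does not show.

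Of 27 tested genes that regulate these factors, 5 rose and 3 fell, 29.6% beside 46.4% of all tested genes. Without compressed replicate 6, 9 were higher and 7 lower, beside 66% of all tested genes called. The largest changes were in the Rag GTPases, which recruit the mTORC1 kinase and its TFE substrates to the lysosome. Rraga was at 75.5 to 81.8 CPM (median 79.4) in controls and 117 to 151 CPM (median 129) in compressed libraries (log2 fold change 0.72 ± 0.06, padj = 2.85e-07). Its close relative Rragb, far lower, was at 6.61 to 8.03 CPM (median 7.23) in controls and 3.79 to 4.76 CPM (median 4.55) in compressed libraries (log2 fold change -0.73 ± 0.07, padj = 2.79e-06). Neither overlapped between the groups. Tfec, the fourth member of the transcription factor family, was at 7.63 to 8.47 CPM (median 8.08) in controls and 9.80 to 11.8 CPM (median 11.2) in compressed libraries (log2 fold change 0.45 ± 0.06, padj = 3.35e-05). Rragd did not pass the filter.

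Beyond the 49 members, 117 of 128 other genes of the lysosome were tested, of which 34 rose and 17 fell, 43.6% in all beside the 46.4% of all tested genes (median log2 fold change 0.05). Scaled by library size alone, 27 were higher and 23 lower, and without compressed replicate 6, 53 and 34. Of the 27 other hydrolases tested, 14 rose and 1 fell, 55.6% called. Without that library 17 were higher and 3 lower, beside 66% of all tested genes called. Hyal1, a hyaluronidase, was at 38.4 to 45.9 CPM (median 40.5) in controls and 67.6 to 80.0 CPM (median 75.4) in compressed libraries (log2 fold change 0.86 ± 0.06, padj = 5.12e-08). Its exons overlap those of Naa80 on the same strand, whose counts came to 68.5% of its own. Cpq, a carboxypeptidase, and Arsg, the glucosamine 3-sulfatase, rose from very low levels (1.10 and 0.80, padj = 2.30e-04 and 1.76e-04), with means of 0.838 ± 0.231 and 1.72 ± 0.192 CPM in controls (SD, n = 6). Exons of Arsg overlap those of the far more abundant Slc16a6 on the opposite strand. Rnaset2a and Rnaset2b, with 4 and 14 counts over all libraries, did not pass the filter. Each shares 909 exon bases with another annotated gene on the same strand, so their reads cannot be assigned with certainty.

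Of 26 membrane and transport genes, 9 rose and 4 fell, 50% beside 46.4% of all tested genes. Without compressed replicate 6, 12 were higher and 7 lower, beside 66% of all tested genes called. Slc15a3, which carries histidine and oligopeptides out of endolysosomes, was at 81.7 to 102 CPM (median 90.6) in controls and 249 to 339.5 CPM (median 284) in compressed libraries. It had the largest fold of all genes of the lysosome examined (log2 fold change 1.66 ± 0.07, padj = 1.57e-09). Tpcn1, an endolysosomal cation channel, was at 159 to 169 CPM (median 159.7) in controls and 70.8 to 127 CPM (median 116) in compressed libraries (log2 fold change -0.56 ± 0.11, padj = 0.00109). Among the 15 genes of mannose 6-phosphate tagging and sorting, 2 rose and 5 fell, 46.7% in all and close to the 46.4% of all tested genes, and without compressed replicate 6, 6 were higher and 8 lower. Gga2, an adaptor for the receptors, was at 54.3 to 58.2 CPM (median 56.5) in controls and 26.5 to 41.4 CPM (median 40.3) in compressed libraries (log2 fold change -0.57 ± 0.09, padj = 1.66e-04). Gnptg, a subunit of the phosphotransferase, and Nagpa, the uncovering enzyme, had -0.40 and -0.32 (padj = 0.00451 and 1.28e-05). Of 5 tested protease inhibitors, Serpinb1a and Serpinb6a rose (0.73 and 0.39, padj = 5.45e-04 and 0.00102), and Cst3 was not called (0.04). Without compressed replicate 6 Cst3 was called lower (-0.11, padj = 0.00545), and 2 of the inhibitors were higher and 2 lower. Exons of Serpinb6a overlap those of Ripk1 and Nqo2 on the opposite strand, and their counts came to 52.6% and 28.4% of its own. Stfa1, Stfa2 and Stfa3 did not pass the filter.

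RAW264.7 cells can form osteoclasts, which are rich in lysosomal genes. Of 11 osteoclast markers, 10 were tested, 5 of them higher and 3 lower, beside 24.5% and 21.9% of all tested genes. Their summed level was 1057 to 1118 CPM in controls and 938 to 1175 CPM in compressed libraries, lowest in compressed replicate 6. That sum held opposite changes. Mmp9 went from a mean of 17.1 CPM in controls to 216 CPM in compressed libraries, and Nfatc1 from 500 to 258 CPM. Ctsk, Ocstamp, Dcstamp and Itgb3 were also higher, and Tnfrsf11a and Atp6v0d2 lower. Acp5, Ctsk and Atp6v0d2 stand both among these markers and among the lysosomal genes. The 8 dendritic markers summed to 5.50 to 6.90 CPM in controls and 8.94 to 18.045 CPM in compressed libraries, the 6 glial and neural markers to 6.08 to 7.05 CPM in controls and 7.54 to 14.3 CPM in compressed libraries, with Olig2 and Sox2 at 0. Itgax made up most of the dendritic sum, at 3.42 to 4.91 CPM in controls and 6.05 to 14.9 CPM in compressed libraries, and Nes most of the glial and neural sum, at 5.61 to 6.64 CPM in controls and 7.14 to 13.9 CPM in compressed libraries. Sums of neutrophil, lymphocyte, fibroblast, and epithelial and endothelial markers stayed at or below 1.19 CPM in each library, and S100a9, Ly6g, Cd3e and Col3a1 were at 0 in all 12. The summed macrophage and dendritic markers, Nes and 8 of the osteoclast markers moved with the groups. Single macrophage markers moved in both directions. The part of all these markers in the lysosomal changes was not tested.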

How the data were processed

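The authors aligned directional, mRNA-enriched libraries by STAR 2.7.2, and GRCm39 is the assembly in their processing notes. They deposited whole-number counts per Ensembl gene, unnormalized, 1 column per library. Which program counted reads, and whether by strand, is not given in the sources used here. Symbols and exon lengths came from GENCODE M21 (GRCm38) by gene ID for 51948 of 56941 IDs, which hold 99.5% of counts. The members and gene lists were chosen with earlier results of these data known.

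Counts were filtered with filterByExpr (minimum count 10), scaled by TMM and tested with the quasi-likelihood F test of edgeR 4.0.16 (limma 3.58.1, R 4.3.3) on condition alone, with Benjamini-Hochberg adjustment. CPM are counts divided by the TMM-scaled library size and set per 1000000, errors beside log2 fold changes are standard errors from the fit, and intervals are 95%. Log2 CPM used a prior count of 2. Ratios of partner genes used counts plus 0.5 and exact permutation in Python 3.11.15 with NumPy 2.4.6, pandas 2.3.3 and SciPy 1.17.1. Figures used matplotlib 3.10.9. The scripts were tested on simulated data. Alternatives were DESeq2 1.42.0, RLE, upper-quartile and library-size scaling, no filter, a filter at a mean normalized count of 50, a fit blocked by replicate number, glmTreat at 1.2-fold, padj of 0.01, removal of the length trend (lowess span 0.3), a pseudocount of 5 and leaving out each library.

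Values per library are given for the 3 largest called increases and decreases, the largest change of each role, the transcription factors, and members whose libraries overlap or hold an outlying one; the other 128 lysosomal genes are named for the 3 largest called changes of each sub-list or as ratio partners. A few results that these rules would name are not reported here.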

Additional observations from a re-analysis of the deposited data

Results flagged for a closer look

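Each lysosomal gene was examined in each group of 6 libraries for a highest or lowest value that stood far from the others, by Dixon's ratio of the gap to the range with a critical value of 0.625. Of 98 groups examined, 33 held such a value, and chance alone gives about 1 in 20. Compressed replicate 6 accounted for 29 of the 33.

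Compressed replicate 6 was far above the other compressed libraries for 17 genes, with the following CPM in that library: Ctsd 1369, Ctsl 957, Ctss 644, Ctsz 943, Lgmn 464, Hexa 348, Neu1 151, Psap 1017, Gm2a 173, Npc2 657, Cd63 545, Atp6v1b2 390.3, Atp6v1d 98.9, Atp6v1e1 168, Atp6v0c 131, Atp6v0d1 199 and Tfeb 24.1. It was far below them for 12 genes, at Tpp1 228, Gaa 79.8, Manba 55.9, Galns 33.5, Arsb 96.9, Naglu 67.9, Sgsh 20.5, Npc1 40.3, Laptm5 503, Mcoln1 41.2, Atp6v1a 349 and Mitf 73.6 CPM. Both lists held soluble and membrane proteins. The high ones included the proteases Ctsd, Ctsl, Ctss and Ctsz, the soluble Npc2, the membrane protein Cd63 and the pump subunit Atp6v0c. The low ones included the membrane proteins Npc1 and Laptm5, the protease Tpp1 and the enzymes Gaa, Arsb and Sgsh. Across the 49 members, Spearman's rho of exon length with the difference of this library from the mean of compressed replicates 1 to 5 was -0.37, and across 14647 tested genes it was -0.55. These are descriptions across genes of shared libraries, not a test, and the reason was not tested.

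The other 4 were single libraries near their groups. Ctsh was at 2.08 CPM in control replicate 5 beside 2.45 to 2.58 in the other controls. Neu1 was at 124 CPM in control replicate 3 beside 114 to 118. Lamp2 was at 246 CPM in control replicate 1 beside 255 to 260.3. Lamp1 was at 672 CPM in compressed replicate 5 beside 708 to 721.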

How the results depend on the processing

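The 16 higher and 9 lower calls were 16 and 11 with DESeq2 and 16 and 9 with RLE factors. Without the low-count filter they were 11 and 8 (Hexa, Glb1, Gusb, Galns, Psap and Npc2 not called). With the length trend removed they were 17 and 7, beside 4114 and 3780 of the 14647 tested genes with a known length. Against a 1.2-fold limit (glmTreat) they were 5 and 1, with 13 and 4 for the other lysosomal genes. Shares of all tested genes without the filter and with a replicate block are not given here. Leaving out 1 library at a time gave 13 to 21 higher and 8 to 14 lower members and 31 to 53 higher and 15 to 34 lower other genes, the most without compressed replicate 6. No called member changed direction under any setting. Uncalled members did. With library size alone the log2 fold changes were -0.016 for Ctsb, -0.031 for Gaa, -0.013 for Neu1, -0.048 for Cd63, -0.017 for Mcoln1 and -0.00678 for Atp6v1h, with upper-quartile factors 0.015 for Lamp1 and 0.00546 for Atp6v1a, and with the replicate block -0.018 for Cd63. Over fits without 1 library they ranged -0.15 to 0.062 for Cd63, -0.00045 to 0.13 for Ctss, -0.011 to 0.11 for Ctsz, -0.0012 to 0.11 for Gaa, -0.028 to 0.10 for Ctsl, -0.023 to 0.074 for Neu1, -0.092 to 0.11 for Npc1, -0.066 to 0.027 for Atp6v1a, -0.017 to 0.091 for Atp6v1h and -0.019 to 0.10 for Atp6v0c. Ratios ranged -0.056 to 0.037 for Ctsl/Ctsb, -0.045 to 0.14 for Atp6v1h/Atp6v1a, -0.046 to 0.17 for Atp6v0c/Atp6v1a, -0.30 to -0.16 for Tfeb/Tfe3, 0.065 to 0.16 for Mitf/Tfe3, 0.18 to 0.32 for Atp6v1a/Atp6v1b2, -0.14 to -0.0058 for Cst3/Ctsb and 0.034 to 0.43 for Npc2/Npc1. Whether libraries of the same number were pairs is not given in the sources used here. They correlated at -0.12 to 0.040 after removal of group means. That does not settle it, because compressed replicate 6 entered those means. With the number as a block, 13 members were higher and 8 lower (Glb1, Gusb, Galns and Npc2 not called). By sign flips over 6 pairs the ratios were 0.22 for Lamp2/Lamp1, -0.24 for Ctss/Ctsd, 0.49 for Gm2a/Hexa and -0.32 for Neu1/Ctsa. They were -0.24 for Glb1/Ctsa, -0.44 for Tcirg1/Atp6v0a1, -0.62 for Atp6v0a2/Atp6v0a1 and -0.75 for Atp6v0d2/Atp6v0d1. Each of these had p = 0.0312 (exact permutation), the smallest possible, and padj = 0.059, so none passed padj of 0.05. Summed with its copies before the fit, a choice made after seeing the data, Atp6v0c had 0.0063. The causes of these shifts were not tested. Among the genes named for a change, depth was least for Cpq, with 582 counts over the 12 libraries.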

Other observations

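Heparan sulfate is taken apart in a fixed order by exoenzymes that each prepare the end for the next. The 6 genes of that order given here were gathered after their values had been seen, so their pattern is a description and no test. Hgsnat, the acetyltransferase that makes the substrate of Naglu, was at 34.2 to 37.6 CPM (median 35.2) in controls and 53.8 to 63.7 CPM (median 56.6) in compressed libraries (log2 fold change 0.69 ± 0.05, padj = 9.68e-08), beside 0.68 for Naglu. Gusb was lower (-0.10), while Sgsh (-0.18), Idua (0.12) and Ids (0.04) were not called. Without compressed replicate 6 all 3 were called, Sgsh lower (-0.09, padj = 0.0258) and Idua and Ids higher (0.22 and 0.09, padj = 2.00e-04 and 0.0176). Exons of Idua overlap those of Dgkq on the opposite strand, whose counts came to 101% of its own.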
